A study of Mus musculus with 5 samples.

Results

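The replication-dependent histone genes comprised 67 protein-coding genes of the mouse genome mm9 whose names begin with Hist1h, Hist2h, Hist3h or Hist4h, out of 22367 protein-coding genes on the autosomes, X and Y. They encode 6 linker histones of family H1, 19 H2A, 18 H2B, 11 H3 and 13 H4 histones. Of these genes, 55 belong to Hist1 on chromosome 13, 9 to Hist2 on chromosome 3, 2 to Hist3 on chromosome 11 and 1 to Hist4 on chromosome 6. Each member was taken by its name, and no measured value is part of that rule. Another 3 genes of these names are annotated as pseudogenes and were counted apart.

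Binding of Runx3, a RUNX family transcription factor, and monomethylation of a lysine of histone H3 (H3K4me1), a mark abundant at enhancers, had been mapped by ChIP-seq in splenic CD8+ T cells (CD8-TC) of ICR mice. The cells were selected with anti-CD8 beads, TCR-activated for 2 days with anti-CD3 and anti-CD28, and then grown for 4 days in 100 u/ml IL-2. All libraries came from such IL-2-activated cells, and no mutant or resting cells were among them. The 5 libraries comprised 2 anti-Runx3 precipitations, 2 with non-immune rabbit serum (NIS) and 1 with anti-H3K4me1. Each antibody has a single list, with the repeats of Runx3 pooled, so the lists show no spread between libraries. They hold no read number, and the depth behind each region is unknown. In total, the paper gives fewer uniquely aligned reads for these cells than for resting CD8-TC, for both antibodies and NIS. A start without a region below is thus a start where none was called at that depth. Counts and shares below are descriptions of these 2 lists, without a test. Intervals of 95% (Wilson) treat gene starts as independent, which neighbours that share a region are not.

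Dividing cells need new histones in the S phase, when DNA is copied, and these clustered genes supply most of them. H2A, H2B, H3 and H4 form the core particle around which DNA is wound, and H1 binds the linker between particles. Most of these genes lack introns, and their mRNAs end in a stem-loop in place of a poly(A) tail. Within the clusters, H2A and H2B genes often lie head to head and share the DNA between their starts. The promoters of H2A and H2B genes are known for CCAAT and octamer elements. IL-2-activated T cells divide rapidly, and the clusters are known to be active in dividing cells.

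The H4 genes are shown first, since 7 of the 13 had a Runx3-bound region over the start, and since their sequences differ at a RUNX motif inside the coding sequence. The RUNX motif was searched as TGTGGT or TGTGGC, and as TGCGGT or TGCGGC, on either strand. Each H4 coding sequence was 309 bases long and all 13 gave 1 and the same protein by the standard code, so they differed among themselves only at synonymous bases. The stretch from coding base 44 to 73 of each gene, counted from 1 at the first base of the start codon, is given 5′ to 3′ on the gene strand. Capitals mark a RUNX motif, here TGCGGT read on the other strand. Positions are on mm9.

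The 7 genes whose start lay inside a Runx3-bound region were the following.
Hist1h4j (chr13:21827008-21827037, plus strand): gcgctaagcgccACCGCAaagtgctgcgcg
Hist1h4k (chr13:21842302-21842331, minus strand): gcgccaagcgccACCGCAaagtgctgcgcg
Hist1h4m (chr13:21903696-21903725, plus strand): gcgccaagcgccACCGCAaagtgctgcgcg
Hist1h4i (chr13:22133120-22133149, minus strand): gcgccaagcgccACCGCAaagtgcttcggg
Hist1h4h (chr13:23623027-23623056, plus strand): gcgccaagcgccACCGCAaagtgctgcgtg
Hist1h4d (chr13:23673514-23673543, plus strand): gtgctaagcgccACCGCAaagttctgcgcg
Hist4h4 (chr6:136752828-136752857, minus strand): gcgccaagcgacACCGCAaggttctccgcg

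The 6 genes without a Runx3-bound region within 1 kb of the start were the following.
Hist1h4n (chr13:21923955-21923984, minus strand): gcgccaagcgccACCGCAaagtgctgcgcg
Hist1h4f (chr13:23643440-23643469, minus strand): gcgctaagcgccaccgtaaggttcttcgcg
Hist1h4c (chr13:23790246-23790275, minus strand): gcgctaagcgccaccgtaaggttctccgtg
Hist1h4a (chr13:23852954-23852983, minus strand): gcgctaagcgccaccgtaaggttctccgcg
Hist1h4b (chr13:23848933-23848962, plus strand): gcgctaagcgccatcgcaaagtgctgcgcg
Hist2h4 (chr3:96067155-96067184, minus strand): gcgccaagcgccatcgcaaagtcttgcgtg

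A RUNX motif at coding base 56 was present in 7 of the 7 H4 genes with Runx3 at the start and in 1 of the 6 without. That gene, Hist1h4n, is a near copy of Hist1h4m, and only 5.91% of the 40-base words within 1 kb of its start occur once in the genome, compared to 5.45% at Hist1h4m. Reads from such sequence are mostly not uniquely aligned. The region at Hist1h4m was called from reads with a unique position there, and whether Hist1h4n was also bound cannot be told. In the other 5 genes without Runx3 the motif was interrupted by a single synonymous base relative to Hist1h4j. This base was C60T in Hist1h4f, Hist1h4c and Hist1h4a, and C57T in Hist1h4b and Hist2h4. The motif at base 56 lay inside the Runx3-bound region in each of the 7 bound genes, at 3 to 177 bp from the centre of the region. A second coding motif, at base 284, did not separate the genes in this way, since it was present in 5 of the 7 bound and 6 of the 6 unbound genes. Hist2h4, an unbound gene, also held a TGTGGT motif elsewhere in its coding sequence. RUNX motifs of any variant within 500 bp of the start did not separate the genes either. They were present at 7 of the 7 bound and 6 of the 6 unbound genes, with a median of 3 in both groups. The contrast at base 56 was noticed after the values had been seen, rests on 13 related sequences and is given as a description without a test.

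**Figure D1:**
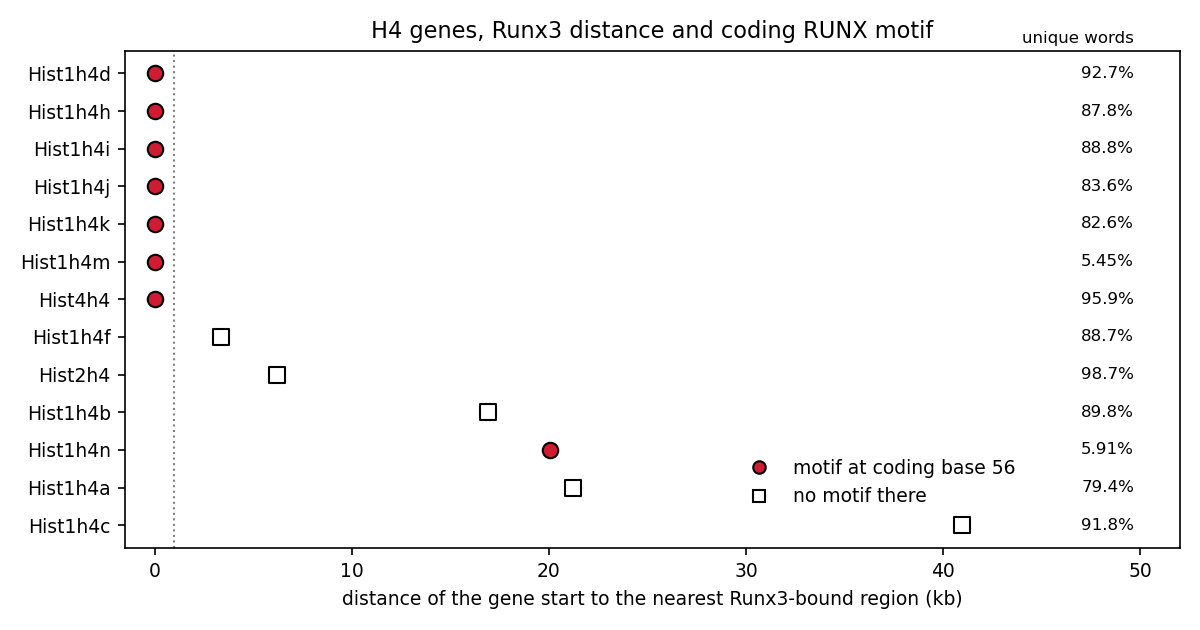
Distance in kb from the start of each of the 13 H4 genes to the nearest Runx3-bound region, with the dotted line at 1 kb. Red circles are genes with a RUNX motif at coding base 56 and open squares genes without it, and the percentage beside each gene is the share of 40-base words within 1 kb of its start that occur once in the genome. The 7 genes at distance 0 are all circles, and of the 6 genes at 3.34 to 41.0 kb only Hist1h4n is a circle.

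The question for the whole family was how often its starts lay in or near regions of both lists, compared to all protein-coding genes. A Runx3-bound region covered the start of 14 of the 67 histone genes (20.9%), compared to 6.45% of all protein-coding starts. Within 1 kb a Runx3-bound region was present at 20 of 67 starts (29.9%, interval 20.2 to 41.7%), compared to 9.42% of all protein-coding starts. Within 5 kb it was present at 34 of 67 (50.7%, interval 39.1 to 62.3%), compared to 13.7%. The median distance of a histone start to the nearest Runx3-bound region was 4.50 kb, and that of all starts was 72.6 kb. All protein-coding starts were taken whatever their expression, which these lists do not hold. The paper reports that in resting cells Runx3-bound genes were related to genes expressed above background. The part of expression in these contrasts was not tested. Since close genes share regions, the regions themselves were counted. The starts covered by Runx3 were served by 12 regions, those within 1 kb by 15 and those within 5 kb by 19. This was 28.4 regions within 5 kb per 100 histone starts, compared to 12.9 per 100 of all starts.

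The same was done for H3K4me1. The start of 0 of 67 histone genes (interval up to 5.42%) lay inside an H3K4me1-marked region, compared to 1.29% of all protein-coding starts, a background at which 0 of 67 is not set apart. Within 1 kb an H3K4me1-marked region was present at 8 of 67 starts (11.9%, interval 6.18 to 21.8%), compared to 8.26%, which is close to the background. Within 5 kb it was present at 29 of 67 (43.3%, interval 32.1 to 55.2%), compared to 17.0%. The H3K4me1-marked regions within 5 kb numbered 16, with widths of 675 to 2690 bp (median 1167 bp), and the median of the whole list was 1592 bp. A region of both lists lay within 1 kb of 1 histone start (background 2.27%) and within 5 kb of 16 (23.9%, background 7.00%). At 40 starts (59.7%, background 84.6%) neither list had a region within 1 kb, and at 20 starts (29.9%, background 76.3%) neither list had a region within 5 kb.

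**Figure D2:**
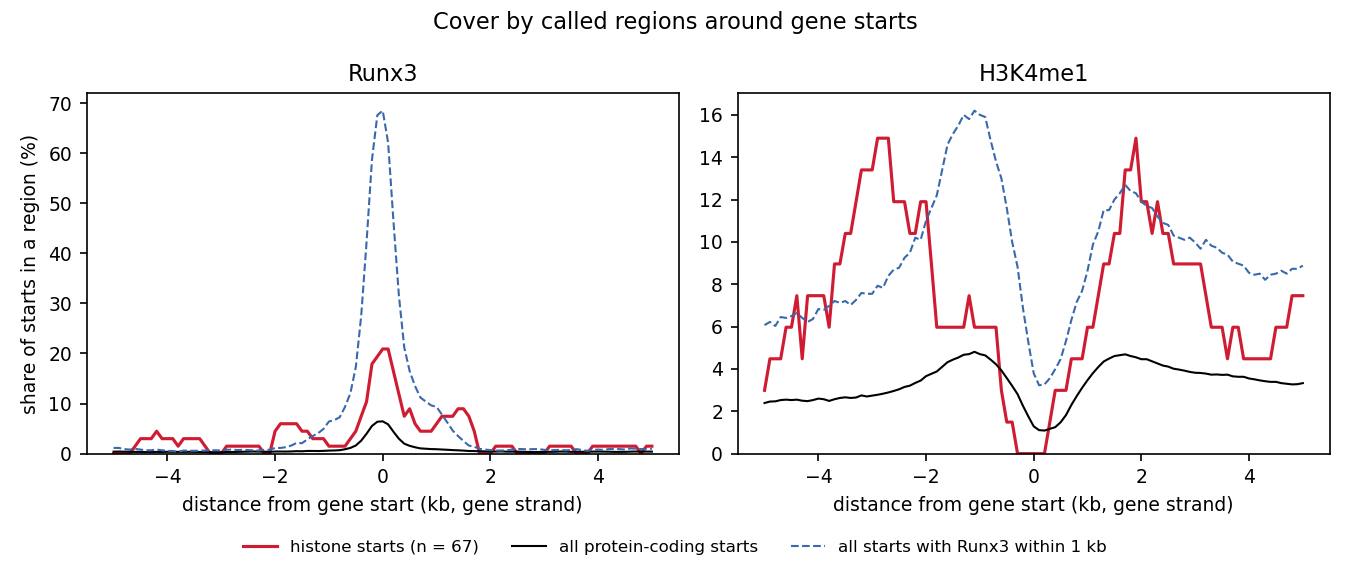
Share of gene starts (in %, vertical axis) that lie in a called region at each distance from the start (in kb along the gene strand), for Runx3 (left) and H3K4me1 (right). Red lines are the 67 histone starts, black lines all protein-coding starts and dashed lines all starts with a Runx3-bound region within 1 kb. Runx3 cover peaks at the start, at 20.9% of histone genes, where H3K4me1 cover of histone genes is 0 and rises to 13.4% at 3 kb upstream and 11.9% at 2 kb downstream.

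Overlap of the lists at these genes was then counted. Of the 19 Runx3-bound regions within 5 kb of a histone start, 1 (5.26%) overlapped an H3K4me1-marked region by 1 bp or more, compared to 57.3% of all 9135 Runx3-bound regions. Since 15 of the 19 lay within 1 kb of a start, regions near starts are the closer comparison. Of these 15, 0 overlapped (interval up to 20.4%), compared to 13.4% of the 1909 Runx3-bound regions within 1 kb of any protein-coding start, a share inside that interval. With H3K4me1-marked regions widened by 500 bp, 4 of the 19 overlapped (21.1%), compared to 62.6% of all, and 1 of the 15 (6.67%), compared to 22.2% of those near any start. Counted by genes, H3K4me1 was within 5 kb of 16 of the 34 histone starts with Runx3 within 5 kb (47.1%), close to the 51.2% of all protein-coding starts with Runx3 within 5 kb. The overlapping region (chr3:96077468-96078076) held 3 RUNX motifs and lay 3824 bp from the Hist2h2bb start, outside exons. The 15 Runx3-bound regions within 1 kb had widths of 338 to 910 bp (median 678 bp), and the median of those within 1 kb of any start was 547 bp.

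Counts are given by family next. Within 1 kb a Runx3-bound region was present at 7 of 13 H4 genes, 3 of 6 H1, 5 of 18 H2B, 3 of 19 H2A and 2 of 11 H3 genes. In H4 each of the 7 regions covered the start, whereas 1 of the 3 regions near H1 starts did. Within 5 kb the counts rose to 10 of 19 for H2A and 10 of 18 for H2B, to 8 of 13 for H4 and to 3 of 11 for H3, and stayed at 3 of 6 for H1. H3K4me1 had another order. Within 5 kb it was present at 7 of 11 H3, 3 of 6 H1, 6 of 13 H4, 7 of 19 H2A and 6 of 18 H2B genes. The intervals of the families overlapped in both lists, and no difference between families was tested.

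**Figure D3:**
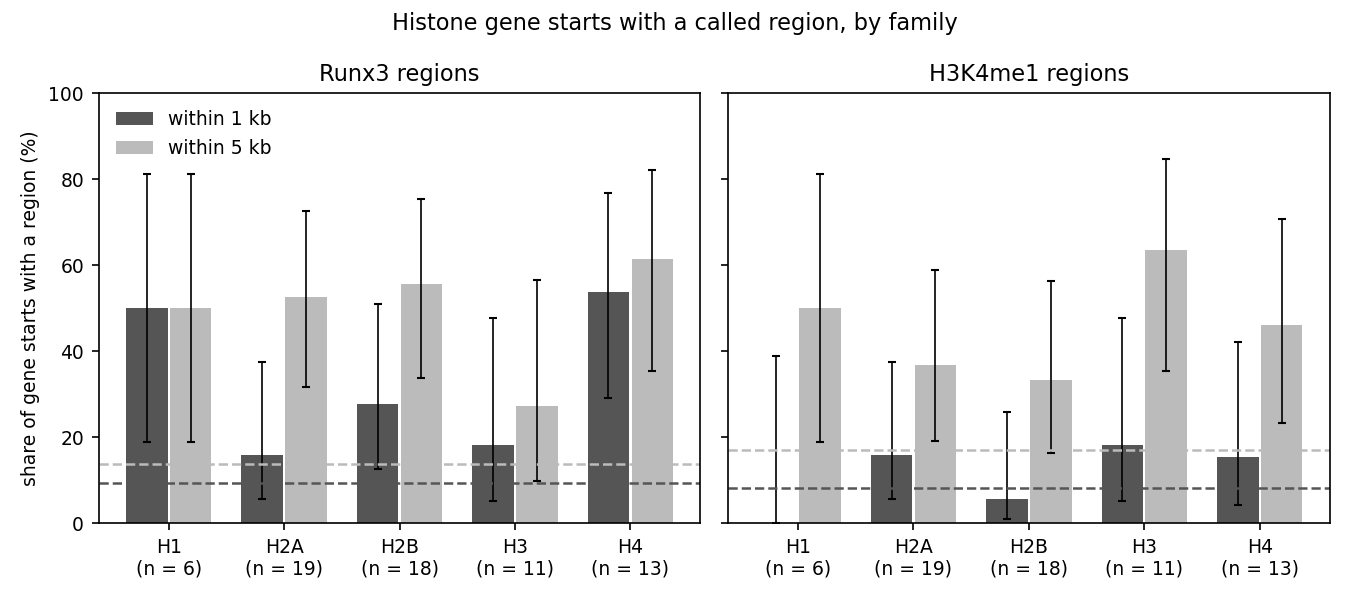
Share of histone gene starts (in %) with a Runx3-bound (left) or H3K4me1-marked region (right) within 1 kb (dark bars) and within 5 kb (light bars), by family, with the number of genes under each family. Error bars are 95% Wilson intervals and dashed lines the shares of all protein-coding starts, 9.42% and 13.7% for Runx3 and 8.26% and 17.0% for H3K4me1. H4 has the highest dark bar for Runx3 and H3 the highest light bar for H3K4me1, with intervals that overlap those of the other families.

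Members of family H4 with Runx3 lay in 3 parts of Hist1 and in Hist4. The Hist1h4j region (chr13:21826682-21827512, 831 bp) covered its coding sequence and UTR and held 3 RUNX motifs, and the Hist1h4k region (chr13:21842215-21842773, 559 bp) held 2. The Hist1h4m region (chr13:21903433-21904009, 577 bp) held 3 motifs, and 7.43% of its 40-base words occur once in the genome. The Hist1h4i region (chr13:22133021-22133455, 435 bp) had its centre 17 bp before the start. The Hist1h4h region (chr13:23622785-23623131, 347 bp) and the Hist1h4d region (chr13:23673209-23674095, 887 bp) each held 1 motif, the coding one at base 56. The Hist4h4 region (chr6:136752502-136753179, 678 bp) was the only region within 5 kb of that gene, the sole member of Hist4. It also lay 3590 bp from the start of H2afj, a histone variant gene outside the members. In the Hist4h4 region 100% of words occur once. Here the motif at base 56 lay 3 bp from the centre. Of the H4 genes without Runx3 within 1 kb, Hist1h4f was nearest at 3336 bp, followed by Hist2h4 at 6202 bp and Hist1h4b at 16.9 kb. Hist1h4n, Hist1h4a and Hist1h4c lay 20.1, 21.2 and 41.0 kb away.

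Linker histone genes had Runx3 mostly past the start. The Hist1h1d region (chr13:23646853-23647762, 910 bp, the widest of the 15) covered the start with its centre 406 bp downstream, and held 4 RUNX motifs, all in the coding sequence. The region at Hist1h1e (chr13:23713190-23713937) began 434 bp downstream of the start, over part of its coding sequence and UTR. The centre of this region lay 808 bp downstream, past the end of the 748 bp gene. Of its 3 motifs, 1 lay in the coding sequence and 2 outside exons. The region at Hist1h1c (chr13:23831281-23831894) began 605 bp downstream and was the only 1 of the 19 with 0 RUNX motifs. The other H1 genes had none within 5 kb, and the nearest of them, Hist1h1a, lay 23.6 kb from Runx3. Hist1h1t, the testis form of H1, lay 43.6 kb from Runx3 and 4485 bp from H3K4me1.

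H2A and H2B genes were mostly arranged head to head. The clusters held 13 divergent pairs of histone genes with starts 168 to 693 bp apart, of which 12 joined an H2A and an H2B gene. A Runx3-bound region lay within 1 kb of 3 pairs, between the starts of 2 of them, and H3K4me1 within 1 kb of 1. Among single starts of all protein-coding genes these shares were 9.42% for Runx3 and 8.26% for H3K4me1. A pair has 2 starts, and divergent pairs of other genes were not counted, so these counts have no like background. In Hist1h2bl and Hist1h2ai (starts 269 bp apart) a region (chr13:21807821-21808569) covered both starts with 2 motifs. In Hist1h2ag and Hist1h2bj (265 bp apart) a region (chr13:22134767-22135276) did the same. In Hist2h2ac and Hist2h2be (241 bp apart) a region (chr3:96025090-96025427) began 46 bp downstream of the Hist2h2be start and 287 bp from that of Hist2h2ac, in the coding sequence of Hist2h2be. Hist2h2bb had a region (chr3:96073436-96074209) over its start. Hist1h2be was counted through a region 197 bp from its annotated start, but that gene model is 37383 bp long and its coding sequence starts 3730 bp from the nearest Runx3-bound region. The region near its annotated start is that of Hist1h1e.

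Among H3 genes, Hist1h3h had a Runx3-bound region over its start (chr13:21809246-21810017) and was the only histone gene with both lists within 1 kb, with H3K4me1 at 636 bp. Hist2h3b lay 859 bp from the region at Hist2h2bb. The next H3 gene, Hist1h3g, lay 4160 bp from Runx3. The limit of 1 kb passed close to some genes. Hist2h3b lay just inside it, and Hist2h2aa2 (1011 bp) and Hist3h2a (1014 bp) just outside. The region near Hist2h2aa2 covered the start of the H3 pseudogene Hist2h3c2.

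H3K4me1 within 1 kb was found at 8 histone genes, of which only Hist1h3h also had Runx3 within 1 kb. Most marked starts lacked Runx3 among all protein-coding genes too, where 507 of 1847 had it within 1 kb. Counted from Runx3, 1 of the 20 histone starts with Runx3 within 1 kb had H3K4me1 there (interval 0.888 to 23.6%). The share for all protein-coding starts with Runx3 within 1 kb was 24.1%, just above that interval, and the difference was not tested. Hist1h4a lay 245 bp from an H3K4me1-marked region, Hist1h2af 321 bp, Hist1h2ah 360 bp and Hist1h2bk 538 bp. In Hist2, Hist2h2aa1 lay 610 bp, Hist2h3c1 626 bp and Hist2h4 943 bp from H3K4me1. None of these 7 genes had Runx3 within 1 kb, and their distances to Runx3 ranged from 2038 bp at Hist1h2ah to 21.2 kb at Hist1h4a.

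The counts were also made by cluster. Runs of members with less than 100 kb between neighbouring starts gave 5 clusters in Hist1, named a to e here in order along chromosome 13, and 1 each for Hist2, Hist3 and Hist4. The part of chromosome 13 with 18 genes (Hist1 a, chr13:21807632-21929399, 122 kb) had Runx3 within 5 kb of 11 starts and H3K4me1 within 5 kb of 4. Its 5 Runx3-bound regions covered 6 starts, and its single H3K4me1-marked region lay near its left end. In the part with 5 genes (Hist1 b, chr13:22126982-22135545, 8.56 kb) Runx3 was within 5 kb of 5 starts and H3K4me1 of 4. In the largest part (Hist1 c, chr13:23622919-23856283, 233 kb) Runx3 was within 5 kb of 9 of 29 starts (interval 17.3 to 49.2%). H3K4me1 was within 5 kb of 15 (interval 34.4 to 68.6%). In Hist1 a the Runx3 interval began at 38.6% and that of H3K4me1 ended at 45.2%. The intervals of the lists thus overlapped in both parts, neighbouring starts share regions, and no order of the lists or parts was tested. The share of H3K4me1 in Hist1 a (22.2%) was also near the 17.0% of all protein-coding starts. Hist1 c held 6 Runx3-bound and 11 H3K4me1-marked regions, or 2.57 and 4.71 per 100 kb, compared to 0.344 and 0.715 per 100 kb of the assembly. The assembly figures also count DNA far from any gene, so they are not a like comparison for a dense gene cluster. In Hist2 (chr3:96023839-96082924, 59.1 kb) each list had a region within 5 kb of 6 of 9 starts. In Hist3 both genes had Runx3 within 5 kb and neither had H3K4me1. Hist1h2ba and Hist1h2aa (Hist1 d), forms known from testis, and the isolated Hist1h2al (Hist1 e) had neither within 5 kb, and lay 179, 179 and 269 kb from Runx3.

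Motifs in these regions were then examined. A RUNX motif was present in 18 of the 19 Runx3-bound regions within 5 kb of a histone start (94.7%), compared to 92.6% of all Runx3-bound regions, so the share was near that of the list as a whole. Variants were then counted apart. TGTGGT, found in 69.6% of all Runx3-bound regions and in 41.2% of those within 1 kb of any start, was present in 3 of the 15 regions within 1 kb of a histone start (20.0%). TGCGGT was present in 10 of 15 (66.7%), compared to 40.1% of those within 1 kb of any start and 20.8% of all. TGCGGC was also present in 10 of 15 (interval 41.7 to 84.8%), compared to 42.8% and 16.3%. In the central 200 bp these contrasts shrank or turned. There TGCGGT was present in 5 of 15 (33.3%), compared to 25.6% of those within 1 kb of any start, and TGCGGC in 3 of 15 (20.0%), below the 22.5% of those near any start. The histone regions were also wider, as given above, and the part of width in the whole-region shares was not tested. Of the 30 RUNX motifs in these 15 regions, 20 lay in coding sequence, 1 in a UTR and 9 outside exons. All but 2 of the 20 coding motifs were TGCGGC (10) or TGCGGT (8).

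Coding motifs were not limited to bound genes. A RUNX motif lay in the coding sequence of 20 of 20 histone genes with Runx3 within 1 kb and of 38 of 47 without. Within 500 bp of the start, TGCGGT was present at 12 of 20 histone genes with Runx3 (60.0%) and at 5 of 47 without (10.6%). Among all protein-coding genes these shares were 42.2% with and 20.0% without Runx3 within 1 kb. Outside H4, TGCGGT was present at 5 of 13 histone genes with Runx3 and at 2 of 41 without, and TGCGGC at 13 of 13 and 31 of 41. TGTGGT did not separate the histone genes in this way, at 45.0% with and 40.4% without. Genes that lie head to head share sequence, so a motif can count at more than 1 start. The TGCGGT motif between Hist1h2bl and Hist1h2ai, for example, lay within 500 bp of both starts. These contrasts were not tested.

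In the 250 bases before the start, a RUNX motif was present at 23 of 67 histone genes (34.3%), compared to 37.5% of all protein-coding starts, so the share was not above that of all promoters. By variant, TGTGGT was present before 5 histone starts (7.46%, background 12.8%), TGTGGC before 10 (14.9%, background 14.8%), TGCGGT before 5 (7.46%, background 5.63%) and TGCGGC before 5 (7.46%, background 10.6%). The ETS motif, searched as CAGGAA or CGGAAG, was present before 20 (29.9%, background 36.5%). Other elements were more frequent there. CCAAT was present before 57 of 67 histone starts (85.1%), compared to 35.0%, and before each of the H1, H2A and H2B genes but only 4 of 13 H4 genes. The octamer ATTTGCAT was present before 15 (22.4%), all H2A or H2B genes, compared to 1.62%. TATAAA was present before 33 (49.3%), compared to 12.3%. The letters GGTCCG, noticed in the H4 promoters after they had been printed, were present before 11 of 13 H4 starts, compared to 7.79% of all starts, in 7 of 7 with Runx3 and 4 of 6 without. Matches to letters are descriptions and do not show that a factor was bound.

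To show this sequence, the stretch before the start and outside exons is given for the 6 Runx3-bound regions with centres nearest to a histone start, 5′ to 3′ on the gene strand. RUNX motifs are in capitals, and 4 of the 6 printed stretches had none. Each stretch holds at most 120 bases and is not the whole promoter. For Hist4h4, whose annotated start is the start codon, the last 50 bases were left out. The Hist1h2ai stretch ends 27 bp before the start, and a TGCGGT motif centred 12 bp before the start lies outside it. The Hist1h4i region holds a TGTGGC motif 178 bp before the start, also outside the printed bases.
Hist1h4i (chr13:22133222-22133341, minus strand): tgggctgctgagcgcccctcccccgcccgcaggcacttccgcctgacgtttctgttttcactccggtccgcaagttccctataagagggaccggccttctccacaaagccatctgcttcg
Hist1h4h (chr13:23622813-23622918, plus strand): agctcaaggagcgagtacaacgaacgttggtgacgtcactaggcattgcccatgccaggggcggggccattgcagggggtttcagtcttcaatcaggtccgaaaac
Hist4h4 (chr6:136752951-136753070, minus strand): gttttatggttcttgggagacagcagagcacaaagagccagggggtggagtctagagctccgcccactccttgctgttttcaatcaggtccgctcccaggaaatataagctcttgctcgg
Hist1h2bj (chr13:22134961-22135080, plus strand): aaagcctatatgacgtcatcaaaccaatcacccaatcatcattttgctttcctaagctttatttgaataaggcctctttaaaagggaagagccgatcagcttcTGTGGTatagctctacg
Hist1h2ai (chr13:21808135-21808254, plus strand): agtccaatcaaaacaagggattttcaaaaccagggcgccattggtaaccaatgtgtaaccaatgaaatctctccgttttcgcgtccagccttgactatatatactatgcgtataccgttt
Hist1h4m (chr13:21903495-21903614, plus strand): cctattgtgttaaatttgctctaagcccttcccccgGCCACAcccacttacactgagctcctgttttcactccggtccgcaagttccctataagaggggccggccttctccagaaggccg

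The sequence of these genes limits what uniquely aligned reads can show. Within 1 kb of histone starts the median share of 40-base words found once in the genome was 77.1% (range 0 to 100%), compared to 99.3% for all protein-coding starts. It was 83.1% at the 20 genes with Runx3 within 1 kb and 71.6% at the 47 without, and 68.1% at the 20 genes with neither list within 5 kb. By family the medians were 96.0% for H1, 88.7% for H4, 76.4% for H3, 68.8% for H2B and 68.1% for H2A, so H1 and H4 were highest both here and in Runx3 within 1 kb. At Hist1h2bq, Hist1h2ao, Hist1h2ap and Hist1h2br 0% of words were unique. Of the 14 histone starts with at least 90% unique words, 6 (42.9%) had Runx3 within 1 kb, compared to 10.7% of all starts of that kind. The 6 include Hist1h2be, counted through its annotated start and the region of Hist1h1e, while its coding sequence starts 3730 bp from Runx3. The part of uniqueness in the differences between families was not tested.

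**Figure D4:**
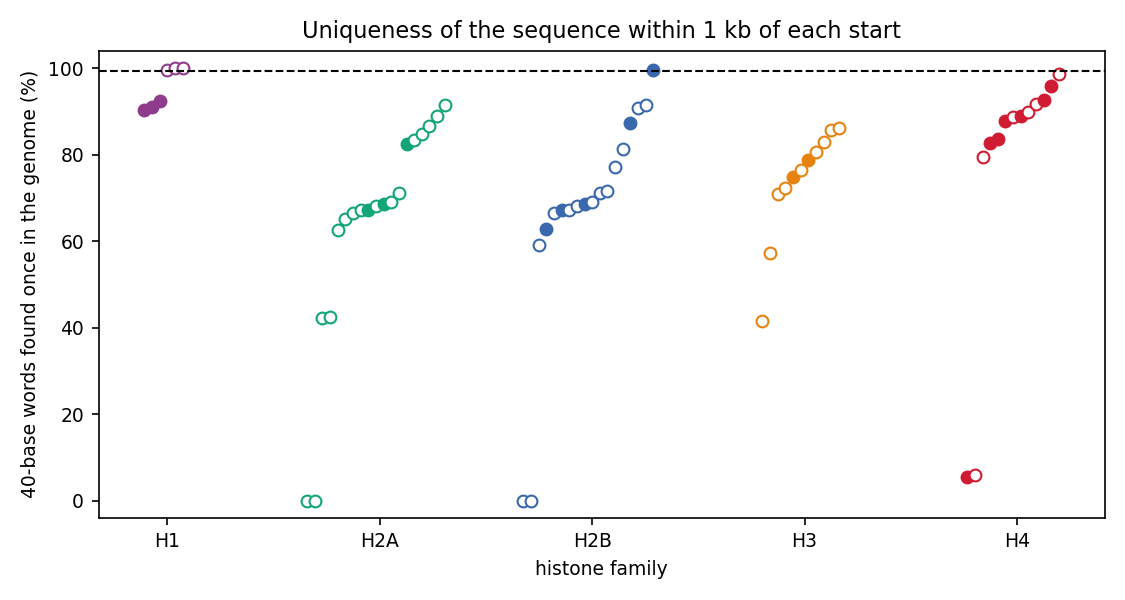
Share of 40-base words (in %) that occur once in the genome within 1 kb of each of the 67 histone starts, by family. Filled circles have a Runx3-bound region within 1 kb and open circles do not, and the dashed line is the median of all protein-coding starts, 99.3%. Filled circles occur from 5.45% (Hist1h4m) to 99.5% (Hist1h2be, by its annotated start), and the 4 genes at 0% are all open.

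Genes that serve histone supply outside the clusters were counted from fixed lists. Of 14 genes of histone mRNA transcription and processing, 5 had Runx3 within 1 kb (background 9.42%), and in each the region covered the start. These were Npat and Casp8ap2, which act in transcription of the clusters, Slbp, which binds the stem-loop of the mRNA, Lsm11, a part of the U7 particle, and Cpsf3, the endonuclease that cuts the mRNA. Of 12 chaperone genes, 4 had Runx3 within 1 kb. They were Hat1, an H4 acetyltransferase, Chaf1b, which loads new H3 and H4 behind the replication fork, and Daxx and Hira, which handle the replication-independent H3 variant. Of 10 genes of replication-independent variants (of 11 names listed), 2 had Runx3 within 1 kb, H2afx over its start and H2afz at 180 bp. H3K4me1 was within 5 kb of 7, 4 and 3 genes of these lists in turn, compared to 17.0% of all starts. As a check of the cell type, H3K4me1 was within 5 kb of 5 of 6 T cell markers, 2 of 4 B cell, 2 of 4 myeloid and 0 of 3 erythroid markers. Among the T cell markers, Cd3d and Cd8a had it at 27 and 50 bp. A region at a gene start is not a measure of expression.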

How the data were processed

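ChIP-seq libraries came from IL-2-activated splenic CD8-TC of ICR mice. According to their methods, the authors used ELAND for alignment to mm9 and retained reads with a unique position. Repeats were pooled, and MACS peaks were called relative to the pooled NIS reads. The deposited values were the positions in bp of called regions, in 2 lists with 0 further columns, hence no count, score or p-value. Depth was therefore not used here, and no replicate error or test could be given. The protocol speaks of 2 repeats for both antibodies but the labels give 1 H3K4me1 library, so the number behind that list is not known.

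Gene starts and sequence were taken from GENCODE vM1 and NCBIM37 (mm9), with coordinates counted from 1. A start was called when the nearest base of a region was within 1 or 5 kb, and overlap required 1 bp. Word uniqueness was counted on both strands of all sequences of the assembly, unplaced contigs included, and approximates the aligner. Histone genes, lists and motifs were chosen with earlier results of these data known, and the coding start, GGTCCG and the H4 bases after these values were seen. The named genes were all members with Runx3, then H3K4me1, within 1 kb, and the nearest other member of each family. H4 genes were later named in full. Without scores, regions at least as wide as the list's median replaced a stricter threshold. Python 3.11.15, NumPy 2.4.6, pandas 2.3.3, numba 0.67.0 and matplotlib 3.10.9 were used, and functions were tested on simulated data.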

Additional observations from a re-analysis of the deposited data

How the results depend on the processing

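No paired analysis was possible because the Runx3 list was called on joined libraries and a single list, with 1 library in the labels, stands for H3K4me1. No library could be left out for the same reason. Of 38 alternative values for 7 results, 30 stayed within the interval of the reported share or the spread between starts and on the same side of the background. With starts of at least 90% unique words, Runx3 within 1 kb rose to 42.9% (6 of 14, background 10.7%), with Hist1h2be counted by its annotated start. In these starts H3K4me1 within 1 kb fell to 7.14% (1 of 14), below its background of 9.37%. With regions at least as wide as the median of their list, Runx3 within 5 kb was 31.3% (background 7.89%), H3K4me1 within 5 kb 17.9% (background 8.42%) and H3K4me1 within 1 kb 4.48% (background 3.13%). Measured from region centres, H3K4me1 within 1 kb was 4.48% (background 3.04%). The overlap of Runx3-bound regions with H3K4me1 was 0% when counted within 1 kb of a start and 21.1% when H3K4me1-marked regions were widened by 500 bp, the latter within the interval of the reported 5.26%. A RUNX motif in the central 200 bp was present in 73.7%, below the 78.7% of all regions. The wider-region and centre settings count fewer regions by construction, and the cause of the others was not tested. With the coding start, chosen after seeing the data, Hist1h2be lost and Hist2h2aa2 (968 bp) gained Runx3 within 1 kb, and the count stayed at 20.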
